A study of Mus musculus with 24 samples.

Results

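The chemokines and their receptors were followed in 24 mouse livers measured on a whole-transcript Affymetrix array. Members were taken by gene symbol: every Ccl, Cxcl, Xcl, Cx3cl, Ccr, Cxcr, Xcr and Cx3cr gene with a number, together with Ppbp, Pf4 and the atypical receptors Ackr1 to Ackr4. The table held 56 such genes among 18820 genes with a probe set of their own. Probe sets shared by several symbols were not used, which left out Ackr4, Ccl21a, Ccl21b, Ccl21c and Ccl27a. A gene with several probe sets was read from the one with the highest mean over the 24 arrays, which concerned Ccl19 and Ccl25. The value for Ccl19 is uncertain, because near-identical copies of the gene exist and its 5 probe sets cannot be told apart by their values (correlation with the set used 0.995 or more). The identifiers of the members are their symbols; 14 lie on chromosome 11, 13 on chromosome 5 and 11 on chromosome 9 (RefSeq GRCm38.p6), mostly as clusters of neighbouring genes.

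Chemokines are small secreted proteins that guide leukocytes along concentration gradients and act through G protein-coupled receptors. Those of the CXC class with an ELR motif attract neutrophils through Cxcr2, the interferon-induced ones attract T and NK cells through Cxcr3, and many CC chemokines attract monocytes through Ccr1 and Ccr2. In liver they are made by hepatocytes, bile duct cells, stellate cells, endothelium and macrophages. Transcription of many of them is under the control of NF-kB, which needs NEMO for its canonical activation, and of AP-1, whose c-Jun subunit is phosphorylated by JNK.

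The labels give 8 groups of 3 mice, and each array is a different animal. Untreated mice aged 52 weeks were either NEMO/JNKΔhepa triple knockouts or labelled control. Diethylnitrosamine (DEN), which causes liver tumours, had been given 40 days earlier to JNKΔhepa double knockouts and to mice labelled control. Mice of the same pair of genotypes had undergone bile duct ligation (BDL), a model of cholestasis, 28 days earlier; ages of treated mice are not given. Untreated mice aged 8 weeks were NEMO single knockouts or NEMO/JNK1Δhepa double knockouts. The labels' protocol names Alb-Cre mice, whose recombinase is active in hepatocytes, a C57BL/6 background, and JNKΔhepa mice that are Jnk1 LoxP/LoxP and Jnk2-/- in every cell; it names NEMO f/f and NEMOΔhepa mice as controls of the triple knockout. Leukocytes therefore keep their floxed genes as far as the promoter goes, whereas bile duct cells share a precursor with hepatocytes in which the albumin promoter is active, so that they may have lost them too. Jnk2 is absent from all cells of the JNKΔhepa mice.

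The targeted genes were read as a check of the labels. The Mapk8 (JNK1) level averaged 5.65 in NEMO/JNKΔhepa livers against 6.52 in livers labelled control, and it was lower in every knockout liver than in its comparison group in all 4 experiments. The Mapk9 (JNK2) level averaged between 2.96 and 3.24 in the 6 groups outside the 8-week experiment, those labelled control included, and 8.34 and 8.39 in the 8-week groups. A loss of Jnk2 therefore did not separate knockout livers from livers labelled control. Ikbkg, which encodes NEMO, averaged 6.45 in NEMO/JNKΔhepa livers against 7.30, whereas the NEMO and NEMO/JNK1Δhepa livers at 8 weeks read 7.07 and 6.92, a level near that of livers labelled control elsewhere. Hepatocyte markers were bright in all groups, with list means between 11.8 and 12.4.

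All values are log2 levels, so that a difference of 1 is a doubling, and levels are compared only within a gene. The 95th percentile of 990 olfactory receptor genes, which liver is not expected to express, was 3.58. Of the 56 members, 33 lay above it on all 24 arrays, 5 on none (Ccl26, Ccl28, Cxcl3, Cxcl15 and Ccr8), and 9 on fewer than 3. A pair of livers stood apart from the rest of their groups for many members, JNKΔhepa replicate 2 after DEN and NEMO/JNK1Δhepa replicate 2 at 8 weeks, and values without them are given beside the results they move most.

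**Figure D1:**
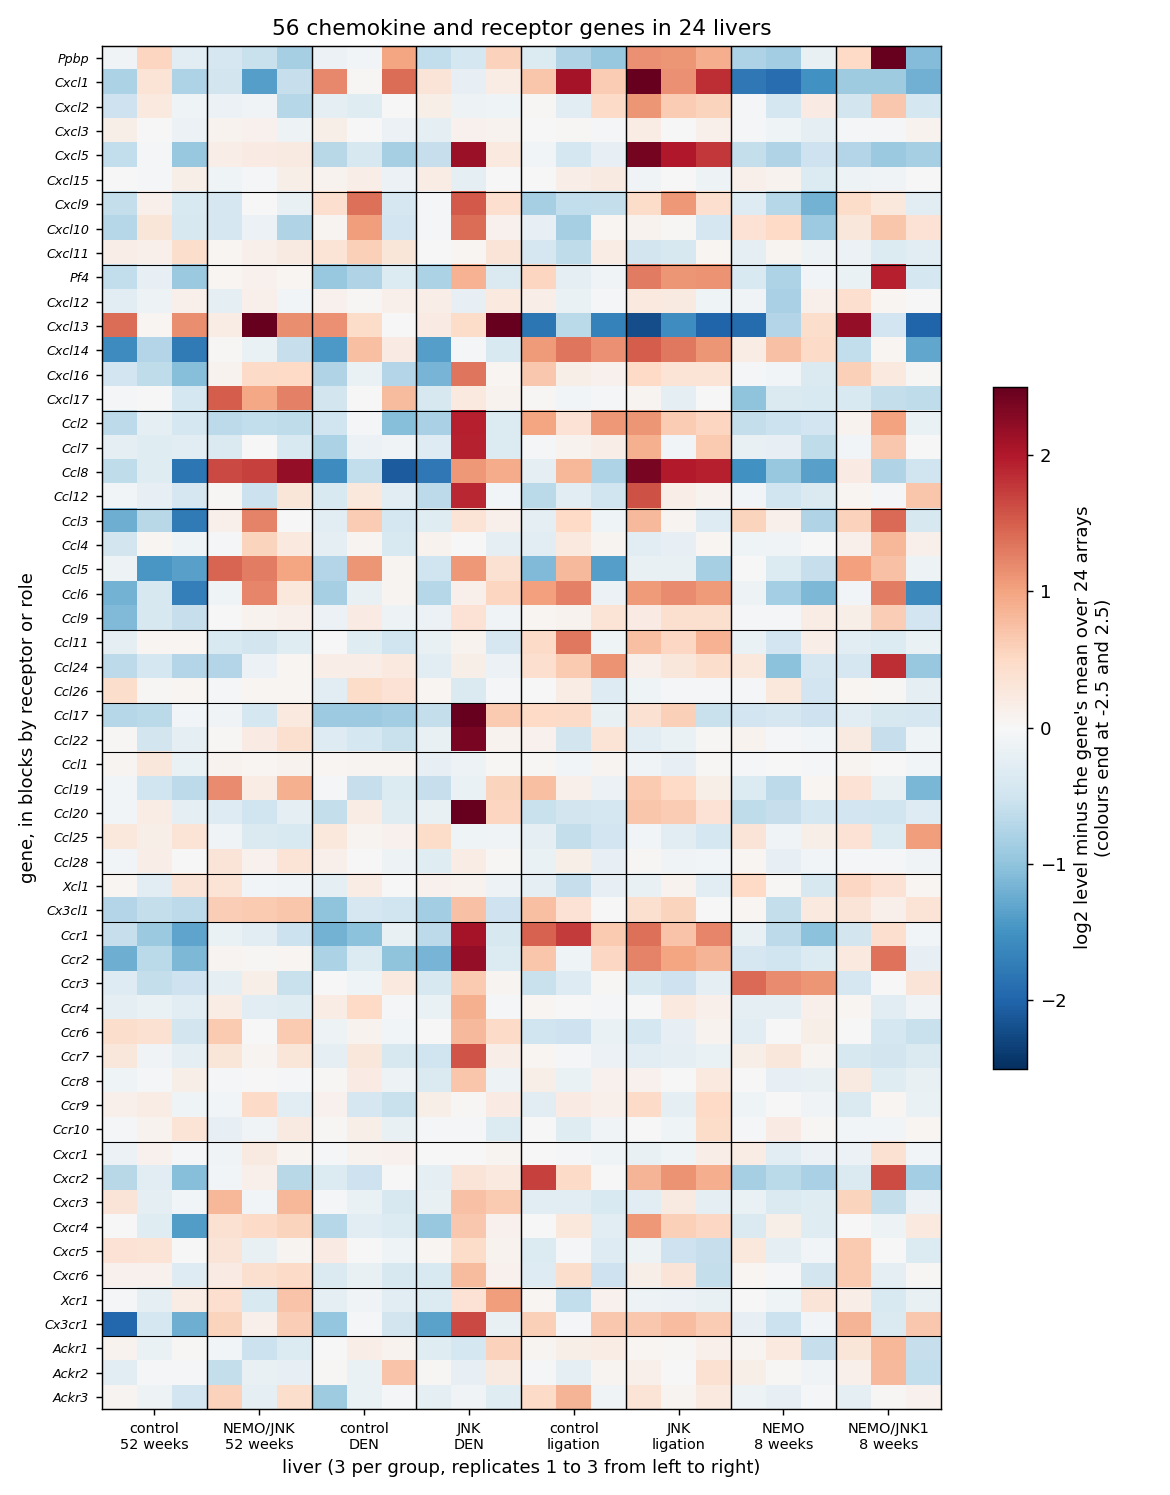
Each cell is 1 liver's log2 level of 1 of the 56 genes minus that gene's mean over the 24 arrays, with genes in rows ordered by receptor or role and livers in columns by group. The red column in the JNKΔhepa DEN group is replicate 2, the highest of all 24 livers for 17 genes. The Cxcl5 row is darkest red in the 3 JNKΔhepa livers after ligation and in that DEN replicate 2.

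Over the 8 groups, 13 of the 56 members differed by limma's moderated F test (adjusted p under 0.05), or 23.2%, against 22.1% of all genes. They were the neutrophil attractants Cxcl1 and Cxcl5, the interferon-induced Cxcl9 and Cxcl11, the B-cell attractant Cxcl13, Cxcl14, Cxcl17, the CC ligands Ccl8, Ccl9 and Ccl11, the membrane-bound Cx3cl1, and the receptors Ccr1 and Ccr3. Cxcl11 is annotated as a transcribed pseudogene in RefSeq. Genotype, age, injury, experiment and animal series (the number that opens a mouse identifier) are mixed in this test. In whole liver, fewer cells of a type and less RNA per cell cannot be told apart.

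Cxcl1, the main neutrophil attractant of mouse liver, ran from 5.36 ± 0.20 (SD, n = 3) in NEMO livers at 8 weeks to 8.93 ± 0.68 (SD, n = 3) in ligated JNKΔhepa livers. Ligated livers labelled control averaged 8.23 ± 0.82 and DEN livers labelled control 7.97 ± 0.74 (SD, n = 3), a pair whose livers overlapped. Cxcl14, whose receptor is not settled, was lowest in 52-week livers labelled control at 5.47 ± 0.55 and highest after ligation, at 8.01 ± 0.14 in livers labelled control and 8.14 ± 0.21 in JNKΔhepa livers (SD, n = 3). The 2 ligated groups overlapped. Cxcl12, which retains leukocytes through Cxcr4, kept group means between 8.25 and 8.66, a range of 0.409, and did not pass (limma adjusted p = 0.592).

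Other members did not pass the F test. The scavenging receptors Ackr1, Ackr2 and Ackr3, which bind chemokines without G protein signalling, had group means of 4.10 to 4.59, 4.67 to 5.19 and 3.47 to 4.25 (limma adjusted p = 0.783, 0.641 and 0.128). Cxcl10 ranged from 5.94 to 6.86, Cxcr6 from 4.07 to 4.75 and Cxcr3 from 4.04 to 4.89, and none passed. Ccl2, the main Ccr2 ligand, ran from 4.41 in NEMO/JNKΔhepa livers to 5.85 in ligated livers labelled control (limma adjusted p = 0.0629), and Cxcr2 from 3.86 in NEMO livers to 5.59 in ligated JNKΔhepa livers (limma adjusted p = 0.051). Both narrowly missed the threshold, which does not show that the groups are alike.

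Short stretches of promoter are shown for 7 members because they match the NF-kB or AP-1 pattern that was searched before the gene start. The AP-1 pattern TGANTCA allows any base in its middle, and Ccl9 and Ppbp match it as TGAATCA. The stretches were chosen after the matches were known. RefSeq gave windows from 250 bases before to 50 bases after the gene start (GRCm38.p6) for 42 members, and none for Cxcl5. Both strands were searched, and capitals mark the matched letters, overlapping matches merged. All stretches are written 5′ to 3′ on the gene's own strand. Those of Cxcl1, Cxcl2 and Cxcl3, neighbours on chromosome 5, carry the same run of capitals.
Cxcl1 (chr5:90891145-90891204, plus strand): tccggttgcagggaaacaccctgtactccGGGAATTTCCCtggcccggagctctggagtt
Cxcl2 (chr5:90903779-90903838, plus strand): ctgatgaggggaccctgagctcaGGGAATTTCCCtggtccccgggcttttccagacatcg
Cxcl3 (chr5:90786001-90786060, plus strand): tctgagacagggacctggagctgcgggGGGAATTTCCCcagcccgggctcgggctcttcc
Cxcl10 (chr5:92348950-92349059, minus strand): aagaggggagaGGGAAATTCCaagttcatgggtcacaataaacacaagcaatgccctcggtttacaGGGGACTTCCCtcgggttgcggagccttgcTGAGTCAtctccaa
Ccl20 (chr1:83116666-83116725, plus strand): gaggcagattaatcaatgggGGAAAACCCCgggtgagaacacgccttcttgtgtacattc
Ccl9 (chr11:83578657-83578716, minus strand): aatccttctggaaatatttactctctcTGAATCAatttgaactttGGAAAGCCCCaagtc
Ppbp (chr5:90768293-90768352, plus strand): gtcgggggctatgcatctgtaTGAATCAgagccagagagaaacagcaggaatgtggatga

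The NF-kB consensus occurred in 11 of the 42 windows (26.2%), against 11% of the windows of 14749 genes. The AP-1 letters TGANTCA occurred in 7 (16.7%), against 7.92%, and the interferon-stimulated response element in 3 (7.14%), against 3.91%. Of the 11 members with a window that were higher in NEMO/JNKΔhepa livers at 52 weeks, 1 held the NF-kB letters (Ccl9), 1 the AP-1 letters (Ccl9) and 2 the interferon letters (Ccl19 and Cxcl14). Of the 5 with a window that were higher in ligated JNKΔhepa livers, 1 held the NF-kB letters (Ccl20) and 2 the AP-1 letters (Cxcl9 and Ppbp). A match is a description of letters and not a binding site.

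At 52 weeks, chemokine genes were higher in NEMO/JNKΔhepa livers than in livers labelled control: 15 of 56 members rose, or 26.8%, against 13.6% of all genes, and 1 fell, against 7.9% of all genes. The rise covered the CC ligands Ccl3, Ccl5, Ccl6 and Ccl9 (4 of 5 measured in a group that also holds Ccl4), CXC ligands outside the Cxcr2 and Cxcr3 groups (4 of 6), Ccl8, Ccl19, Cx3cl1 and Cxcl5, and the receptors Ccr2, Cx3cr1 and Cxcr4. None of the 3 Cxcr3 ligands, the 3 Ccr3 ligands, the 2 Ccr4 ligands or the 3 atypical receptors passed the test. The median difference of the members was 0.252, against -0.045 over all genes. Calls here and below are limma's, at a Benjamini-Hochberg adjusted p under 0.05 over 18820 genes.

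**Figure D2:**
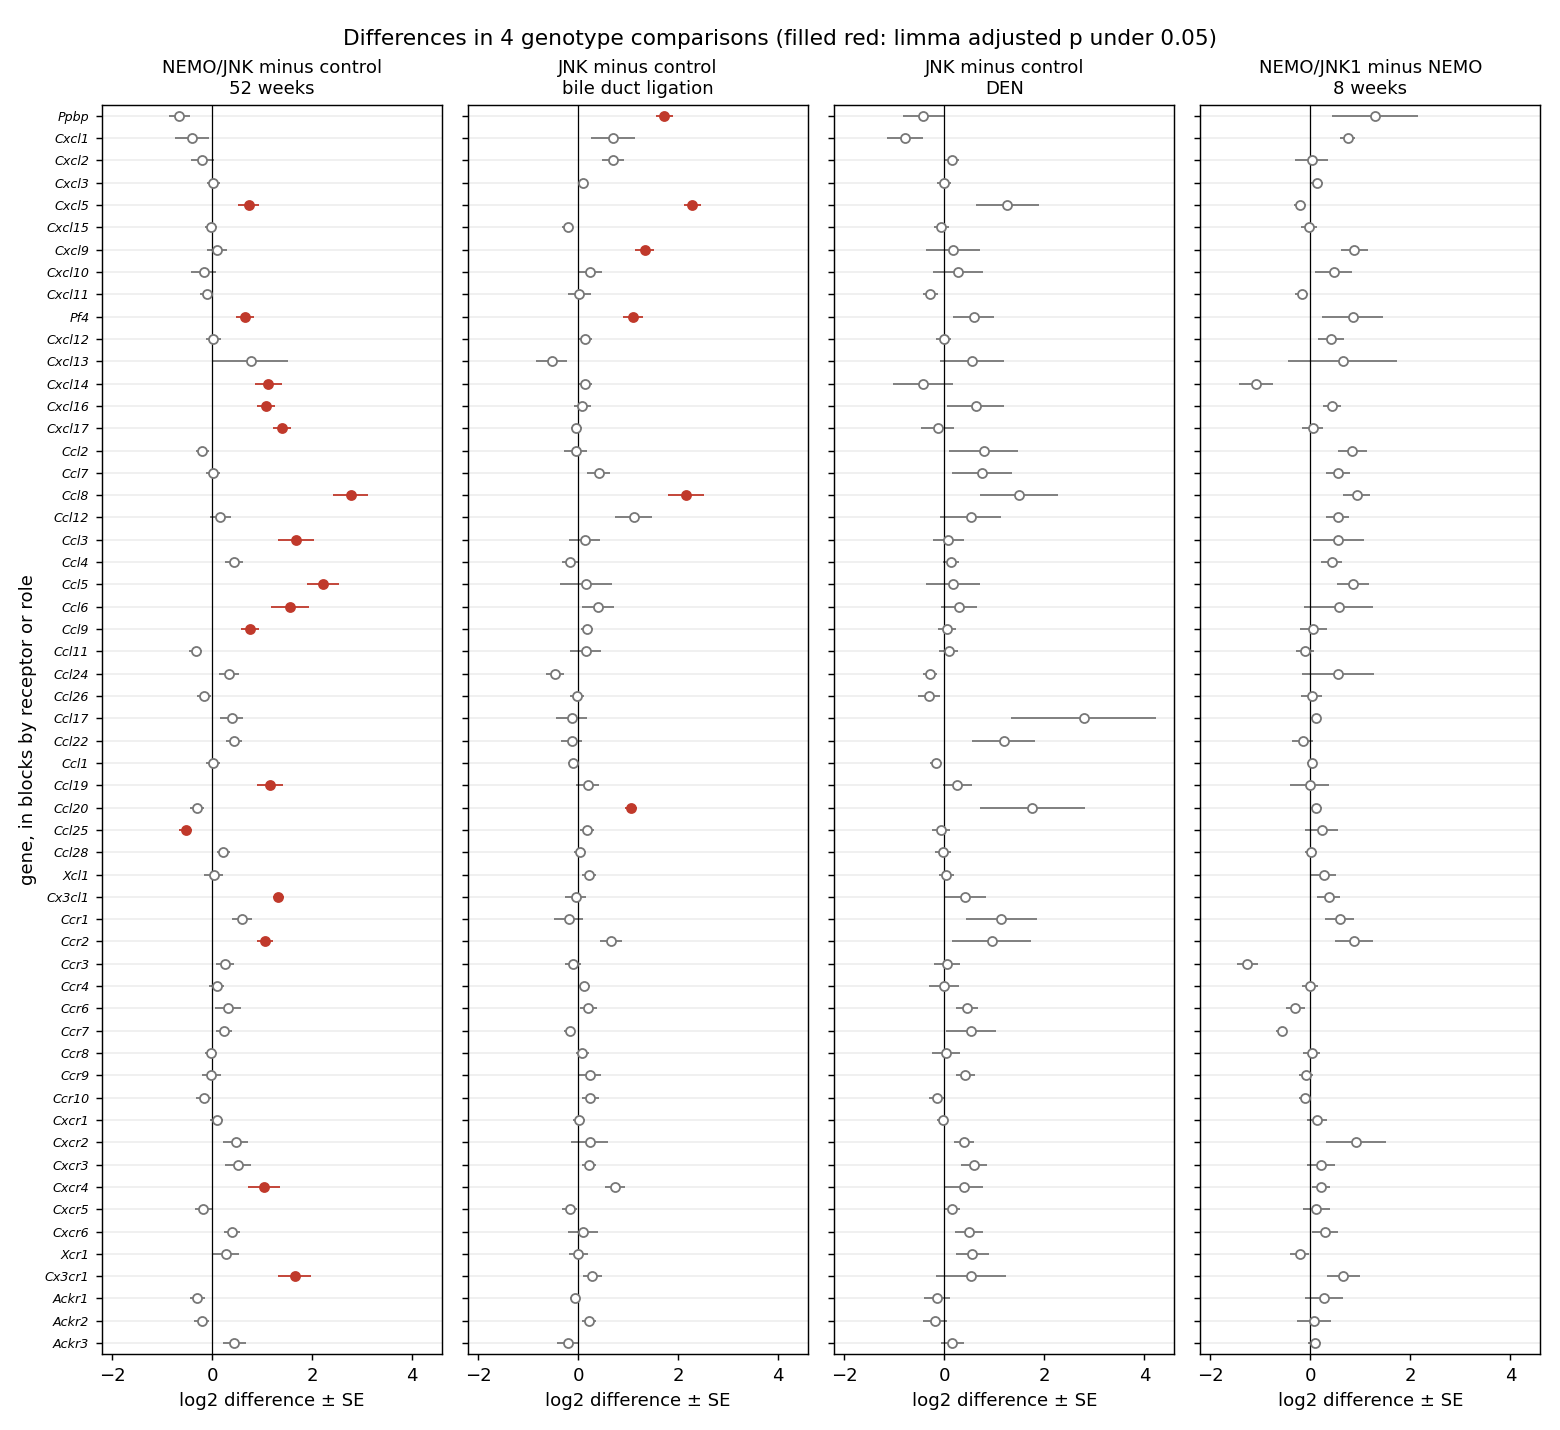
The log2 difference ± SE of each of the 56 genes in the 4 genotype comparisons, 3 livers a group; filled red points passed limma's adjusted p of 0.05. There are 16 filled points at 52 weeks, 15 of them to the right of 0, 6 after bile duct ligation, and none after DEN or at 8 weeks.

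The monocyte attractant Ccl8 had the largest rise. Its level was 4.26, 4.58 and 3.08 in the 3 livers labelled control and 6.54, 6.61 and 7.10 in the NEMO/JNKΔhepa livers, a difference of 2.77 ± 0.35 (SE; limma adjusted p = 0.000945). The groups lay far apart, and the lowest knockout liver was above the highest liver labelled control. The other 3 members of the monocyte chemoattractant family, Ccl2, Ccl7 and Ccl12, did not pass, and Ccl2 read 4.40, 4.80 and 4.61 in livers labelled control and 4.40, 4.43 and 4.40 in the knockouts.

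Of the CC ligands Ccl3, Ccl4, Ccl5, Ccl6 and Ccl9, Ccl5, which draws T cells and macrophages, read 6.88, 5.56 and 5.66 in livers labelled control and 8.47, 8.29 and 8.01 in the knockouts. It rose by 2.22 ± 0.32 (SE; limma adjusted p = 0.00185). Ccl3 (macrophage inflammatory protein) rose by 1.68 ± 0.36 (SE; limma adjusted p = 0.011). The macrophage products Ccl6 and Ccl9 rose by 1.56 and 0.76, with limma adjusted p of 0.0205 and 0.0167. In these 4 genes that rose, every knockout liver lay above every liver labelled control. Ccl9 read 8.60, 9.30 and 9.13 (control label) against 9.69, 9.79 and 9.83 (knockout), so that its rise was among the smaller ones.

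Both ligands that are made as membrane-bound proteins rose. Cx3cl1 (fractalkine) read 4.51, 4.64 and 4.58 in livers labelled control and 5.87, 5.90 and 5.94 in the knockouts, and its difference of 1.33 ± 0.11 (SE) had the smallest p of all members (limma adjusted p = 0.000145). Its receptor Cx3cr1, carried by monocytes and resident macrophages, read 3.89, 5.41 and 4.64 (control label) and 6.42, 5.98 and 6.48 (knockout) and rose by 1.65 ± 0.33 (SE; limma adjusted p = 0.00879). Livers of the control label were tight for the ligand and scattered for the receptor. Cxcl16 rose by 1.08 ± 0.18 (SE; limma adjusted p = 0.0039), while its receptor Cxcr6, of resident T and NKT cells, differed by 0.40 ± 0.15 (SE) and did not pass (limma adjusted p = 0.0982).

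Among the remaining CXC ligands, Cxcl17, an attractant made by mucosal epithelia, read 4.73, 4.77 and 4.30 in livers labelled control and 6.27, 5.72 and 6.01 in the knockouts. The rise was 1.40 ± 0.18 (SE; limma adjusted p = 0.00113), and the next highest of the 8 group means was 4.86, in DEN livers labelled control. Cxcl14 rose by 1.12 and the platelet and macrophage product Pf4 by 0.65, with limma adjusted p of 0.0178 and 0.032. The neutrophil attractant Cxcl5 read 2.83, 3.41 and 2.51 (control label) and 3.62, 3.65 and 3.69 (knockout), a difference of 0.74 (limma adjusted p = 0.0358) at levels around those of olfactory receptor genes. Of the other Cxcr2 ligands, Cxcl1 differed by -0.39 ± 0.34 and Ppbp by -0.66 ± 0.21, and neither passed (SE; limma adjusted p = 0.435 and 0.0593). Ccl19, which guides T and dendritic cells through Ccr7, rose by 1.16 (limma adjusted p = 0.0131). The single member that fell was Ccl25, the Ccr9 ligand best known from thymus and gut, from 6.30, 6.19 and 6.38 to 5.94, 5.68 and 5.66 (difference -0.53, limma adjusted p = 0.0189).

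**Figure D3:**
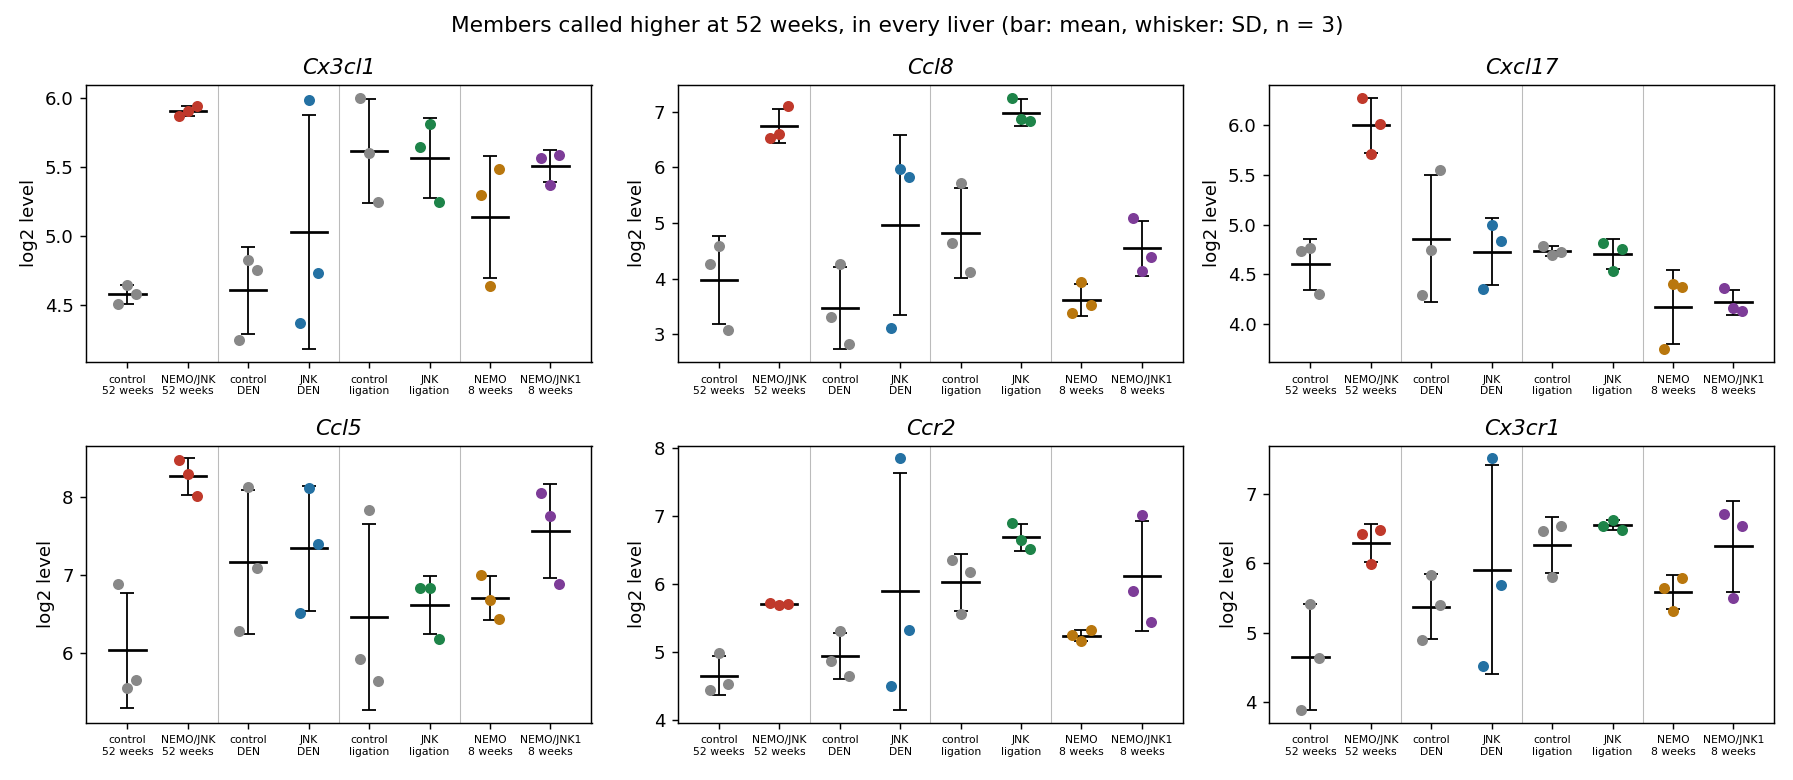
Log2 levels in every liver of 6 genes called higher at 52 weeks (points, with the mean as a bar and the SD as whiskers, n = 3). The red NEMO/JNKΔhepa points stand above the grey 52-week controls in all 6 panels, from 5.87 upward against 4.64 and below for Cx3cl1.

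Of the receptors, Ccr2, which brings monocytes out of the bone marrow, read 4.44, 4.98 and 4.54 in livers labelled control and 5.73, 5.70 and 5.71 in the knockouts. It rose by 1.06 ± 0.15 (SE; limma adjusted p = 0.00194), and the 3 knockout livers were nearly equal. Cxcr4, the receptor of Cxcl12, read 6.38, 6.07 and 4.96 (control label) and 6.75, 6.85 and 6.93 (knockout), and its rise of 1.04 ± 0.31 (SE) just passed (limma adjusted p = 0.0448). Cxcl12 itself differed by 0.03 ± 0.15 (SE). Ccr1 read 3.43, 3.07 and 2.69 (control label) and 3.83, 3.71 and 3.46 (knockout), without overlap, and did not pass (limma adjusted p = 0.0572). These values lie around the olfactory receptor level of 3.58, so that the difference of means is only known to be at least 1.06-fold. Ccr6, Ccr7, Cxcr2 and Cxcr3 differed by 0.32, 0.24, 0.47 and 0.52, and Ackr1, Ackr2 and Ackr3 by -0.30, -0.21 and 0.45; none of these 7 passed.

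Genes that act downstream of the receptors moved in the same comparison. Of 26 measured genes of chemokine signalling, 20 rose and 0 fell (median 0.915), with Pik3cg (the lipid kinase p110 gamma) at 1.53, Elmo1 at 1.55 and the leukocyte GTPase Rac2 at 1.34. Of 17 leukocyte adhesion genes 10 rose and 0 fell (median 1.01), among them Vcam1 at 2.26, Icam1 at 1.22 and the integrin subunit Itgb2 at 1.46. Of 13 genes that bind, cut or present chemokines 6 rose and 1 fell, with the macrophage protease Mmp12 at 2.55. These lists contain no member.

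Markers of several cell types moved with the members, and their part in the rise was not tested. All 10 bile duct markers rose (list mean 8.18 to 8.62 in the knockouts against 4.52 to 5.29), as did 12 of 17 macrophage markers (7.79 to 8.89 against 6.74 to 7.42, with 1 falling), 9 of 17 T and NK markers (4.74 to 5.02 against 3.97 to 4.34) and 4 of 11 B and plasma cell markers (6.16 to 6.82 against 4.61 to 6.17). Neutrophil markers rose in 1 of 11 genes, with overlapping list means, and platelet markers in 0 of 7 (median difference -0.004). Dendritic cell markers rose in 4 of 11 genes (list means 5.48 to 5.89 against 5.04 to 5.32). Of 12 stellate cell markers 2 rose and 1 fell, with overlapping list means (7.03 to 7.68 against 6.69 to 7.47). Of 14 hepatocyte markers 3 fell. Pf4, Cxcl5, Cxcr4, Cxcl14 and Ccl25 passed in 1, 1, 2, 3 and 3 of the 6 fits that left out a liver, and Ccl6, Ccl9 and Ccl19 in 4, 5 and 5. With quantile normalisation 14 members were higher and 5 lower, against 2115 and 2426 of all 18820 genes. With each array centred on its median 11 members were higher and 11 lower, against 1570 and 8942 of all genes. Under that scaling the median difference of all genes was -0.371 and that of the members -0.074. No called member changed direction.

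After bile duct ligation, 6 of the 56 members (10.7%) rose in JNKΔhepa livers over livers labelled control, against 0.797% of all genes, and 0 fell, against 0.558% of all genes. At an unadjusted limma p under 0.05, 10 were higher, against 7.68% of all genes, and 1 was lower, against 6.93%. The 6 were the Cxcr2 ligands Cxcl5 and Ppbp, Pf4, the Ccr6 ligand Ccl20, the Cxcr3 ligand Cxcl9, and Ccl8. None of the 20 measured receptors passed. In RefSeq, Cxcl5, Ppbp and Pf4 are consecutive genes on chromosome 5. The members' median difference was 0.131, against -0.002 over all genes.

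Cxcl5, a neutrophil attractant made by epithelial cells, read 3.39, 3.02 and 3.24 in ligated livers labelled control and 5.84, 5.44 and 5.22 in ligated JNKΔhepa livers. The former values are within the range of olfactory receptor genes, the latter well above it. The difference of measured means was 2.28 ± 0.18 (SE; limma adjusted p = 0.00149). With the olfactory level of 3.58 in place of the control values, which give only an upper limit, the rise was at least 3.77-fold. It passed in each of the 15 other fits of this comparison. Ppbp, the precursor of a Cxcr2 ligand stored in platelets, read 4.97, 4.56 and 4.37 (control label) and 6.45, 6.40 and 6.22 (JNKΔhepa), a rise of 1.73 ± 0.16 (SE; limma adjusted p = 0.00337). Pf4, its neighbour and also a platelet granule protein, read 5.33, 4.58 and 4.72 (control label) and 6.10, 5.90 and 5.92 (JNKΔhepa) and rose by 1.09 ± 0.19 (SE; limma adjusted p = 0.0435). JNKΔhepa livers were above livers labelled control without overlap in all 3 genes. The other neutrophil attractants, Cxcl1 and Cxcl2, differed by 0.70 ± 0.45 and 0.69 ± 0.22 (SE) and did not pass (limma adjusted p = 0.545 and 0.198). Cxcl2 averaged 3.00 (control label) and 3.69 (JNKΔhepa), around the olfactory level, so that its difference is only known to be at least 1.08-fold. Cxcr2, their receptor on neutrophils, read 6.34, 5.10 and 4.65 (control label) and 5.48, 5.76 and 5.54 (JNKΔhepa), and the groups overlapped.

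**Figure D4:**
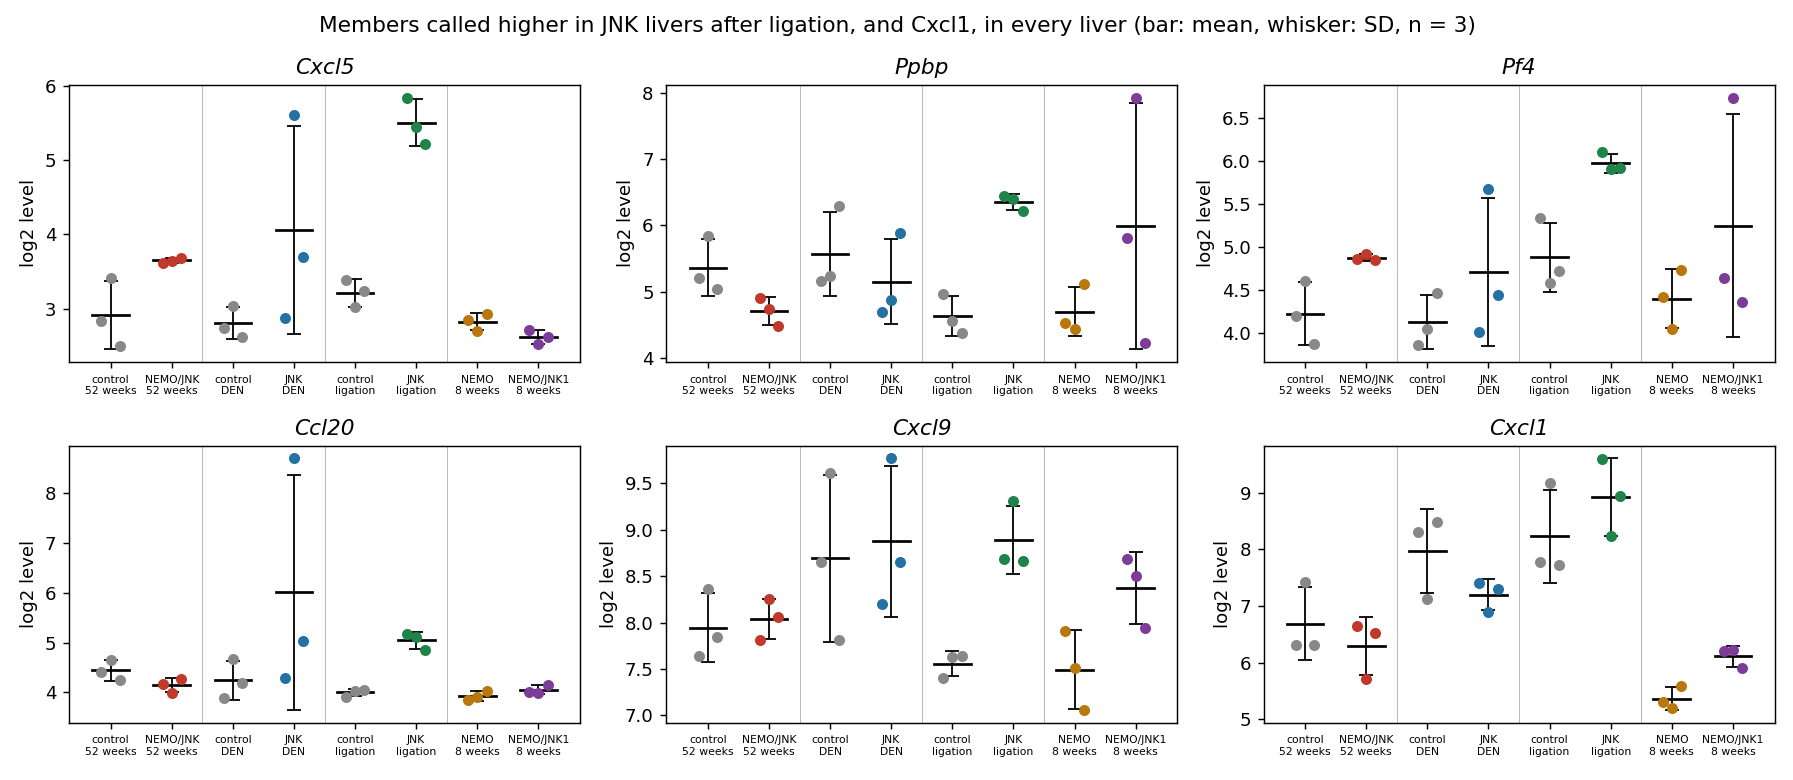
Log2 levels in every liver of 5 genes called higher in ligated JNKΔhepa livers and of Cxcl1 (points, with the mean as a bar and the SD as whiskers, n = 3). The green ligated JNKΔhepa points lie above the grey ligated controls in the first 5 panels, from 5.22 upward against 3.39 and below for Cxcl5, and overlap them for Cxcl1.

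Ccl20, which attracts Ccr6-bearing lymphocytes and dendritic cells, read 3.92, 4.03 and 4.05 in livers labelled control and 5.18, 5.11 and 4.85 in JNKΔhepa livers (difference 1.05 ± 0.12 SE, limma adjusted p = 0.0082). Its receptor Ccr6 differed by 0.21 ± 0.17 (SE). Cxcl9 read 7.40, 7.63 and 7.64 (control label) and 8.69, 9.31 and 8.66 (JNKΔhepa), a rise of 1.33 ± 0.19 (SE; limma adjusted p = 0.0176). The other interferon-induced ligand among the fixed names, Cxcl10, differed by 0.23 ± 0.23 (SE), and the receptor Cxcr3 by 0.22 ± 0.15 (SE). Ccl8 read 4.65, 5.71 and 4.12 (control label) and 7.26, 6.87 and 6.83 (JNKΔhepa), a rise of 2.16 ± 0.36 (SE; limma adjusted p = 0.0333). Ccl8, Pf4 and Cxcl5 are the members that passed both here and at 52 weeks. With a liver left out, Ccl8 and Pf4 passed after ligation in 2 and 1 of 6 fits. At 52 weeks Pf4 and Cxcl5 each passed in 1 of 6. Ccr2 and Cxcr4, without overlap between groups, differed by 0.66 and 0.74 and did not pass (limma adjusted p = 0.202 and 0.126). Ccl24, an eotaxin, was among those with a negative difference, -0.46 ± 0.18 (SE).

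Of the platelet markers, beside Ppbp and Pf4, 0 of 7 passed, with 1 higher and 1 lower at an unadjusted limma p under 0.05; the median difference was 0.093, and list means were 5.03 to 5.11 in JNKΔhepa livers and 4.92 to 5.21 in livers labelled control. Bile duct markers passed in 2 of 10 genes, Prom1 at 2.57 and Muc1 at 2.55, with list means of 6.91 to 7.52 against 5.29 to 6.49. Neutrophil list means were 6.57 to 7.01 against 5.72 to 6.59, with 0 of 11 passing and 7 higher at an unadjusted limma p under 0.05, and macrophage list means 8.53 to 8.69 against 8.16 to 8.47, with 1 of 17 (Lyz2) passing and 8 higher at an unadjusted limma p under 0.05. Dendritic cell list means were 5.8 to 5.86 against 5.27 to 5.72, with 1 of 11 (Cd209a) passing and 5 higher unadjusted. The part of these cells in the rises was not tested. Genes of chemokine signalling, chemokine handling and leukocyte adhesion passed in 0 of 26, 0 of 13 and 0 of 17 cases, with 5, 2 and 4 higher and 1, 1 and 0 lower at an unadjusted limma p under 0.05. Without JNKΔhepa replicate 1 only Cxcl5 and Ppbp passed, where 32 of all genes were higher and 26 lower. Without replicate 2 Cxcl5, Ppbp and Cxcl9 passed, where 34 of all genes were higher and 25 lower. Genotype and animal series nearly coincide here: all 3 JNKΔhepa mice and 1 control mouse belong to one series and the other 2 control mice to another, so that a fit with series as a block sets the knockouts against 1 liver. In that fit Cxcl5, Ppbp and Ccl8 differed by 2.26, 1.99 and 2.86, and Ccl20, Cxcl9 and Pf4 by 0.996, 1.24 and 1.25. Ccl6 differed by 1.255 in it, against 0.393 without the block. With 1 control liver in that series, the fit cannot decide which of these differences stand. In a fit of all 24 arrays Cxcl5 was the 1 member that passed, where 54 of all genes were higher and 62 lower.

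After DEN, no member passed in JNKΔhepa livers against livers labelled control, and none had an unadjusted limma p under 0.05, against 4.15% of all genes. Among all genes 0% passed the adjusted test. The smallest adjusted p of a member was 0.985. JNKΔhepa livers lay above livers labelled control without overlap in 2 members, against 3.26% of all genes, and below in 2, against 6.21%. The 4 members of smallest unadjusted p were Cxcr3, Ccr9, Ccr6 and Cxcl1, with differences of 0.60 ± 0.26, 0.42 ± 0.19, 0.46 ± 0.21 and -0.78 ± 0.36 (SE).

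JNKΔhepa replicate 2 stood apart in this comparison. It was over 1 log2 unit above the mean of the other 2 livers of its group for 20 of the 56 members. Replicate 1 was over 1 log2 unit below the mean of the other 2, replicate 2 included, for 21 members. Without replicate 1 the members' median difference was 0.361, and no member passed. Ccl17 and Ccl22, ligands of Ccr4 that dendritic cells and macrophages make, are named here after their values were seen. Ccl17 read 3.58, 9.80 and 4.84 in JNKΔhepa livers and 3.27, 3.28 and 3.32 in livers labelled control, and Ccl22 3.68, 6.24 and 3.94 (JNKΔhepa) and 3.54, 3.43 and 3.31 (control label). Ccl20 read 4.29, 8.70 and 5.03 in JNKΔhepa livers, and in livers labelled control 3.89, 4.66 and 4.19. The middle value of each JNKΔhepa trio is replicate 2, and it was the highest of all 24 for each of the 3 genes.

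Replicate 2 was the highest of its group for 15 of the 20 receptors and the lowest for 4. It was over 1 log2 unit above the mean of the other livers of its group for 6. Ccr2 read 4.50, 7.85 and 5.32, Cx3cr1 4.53, 7.51 and 5.68 and Ccr1 3.34, 6.07 and 3.61 in the JNKΔhepa livers. The differences of Ccr2 and Cx3cr1 from livers labelled control went from 0.95 and 0.53 to -0.03 and -0.27 without it. Ccr7, the homing receptor of mature dendritic cells, read 4.33, 6.39 and 5.001. Dendritic cell markers had a list mean of 6.55 in replicate 2, against 5.13 and 5.72 in the other livers of its group and 5.24 to 5.4 in livers labelled control. Bile duct markers had 7.25, against 5.12 and 6.22 and 4.71 to 5.56, stellate cell markers 7.44, against 6.48 and 6.93 and 6.61 to 6.76, and hepatocyte markers 11.76, against 12.3 and 12.24 and 12 to 12.34. The part of these cells was not tested. With this liver 6 members differed by more than 1 between the groups, and without it 0 did, while the members' median difference went from 0.169 to -0.009. Without it no member passed either.

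**Figure D5:**
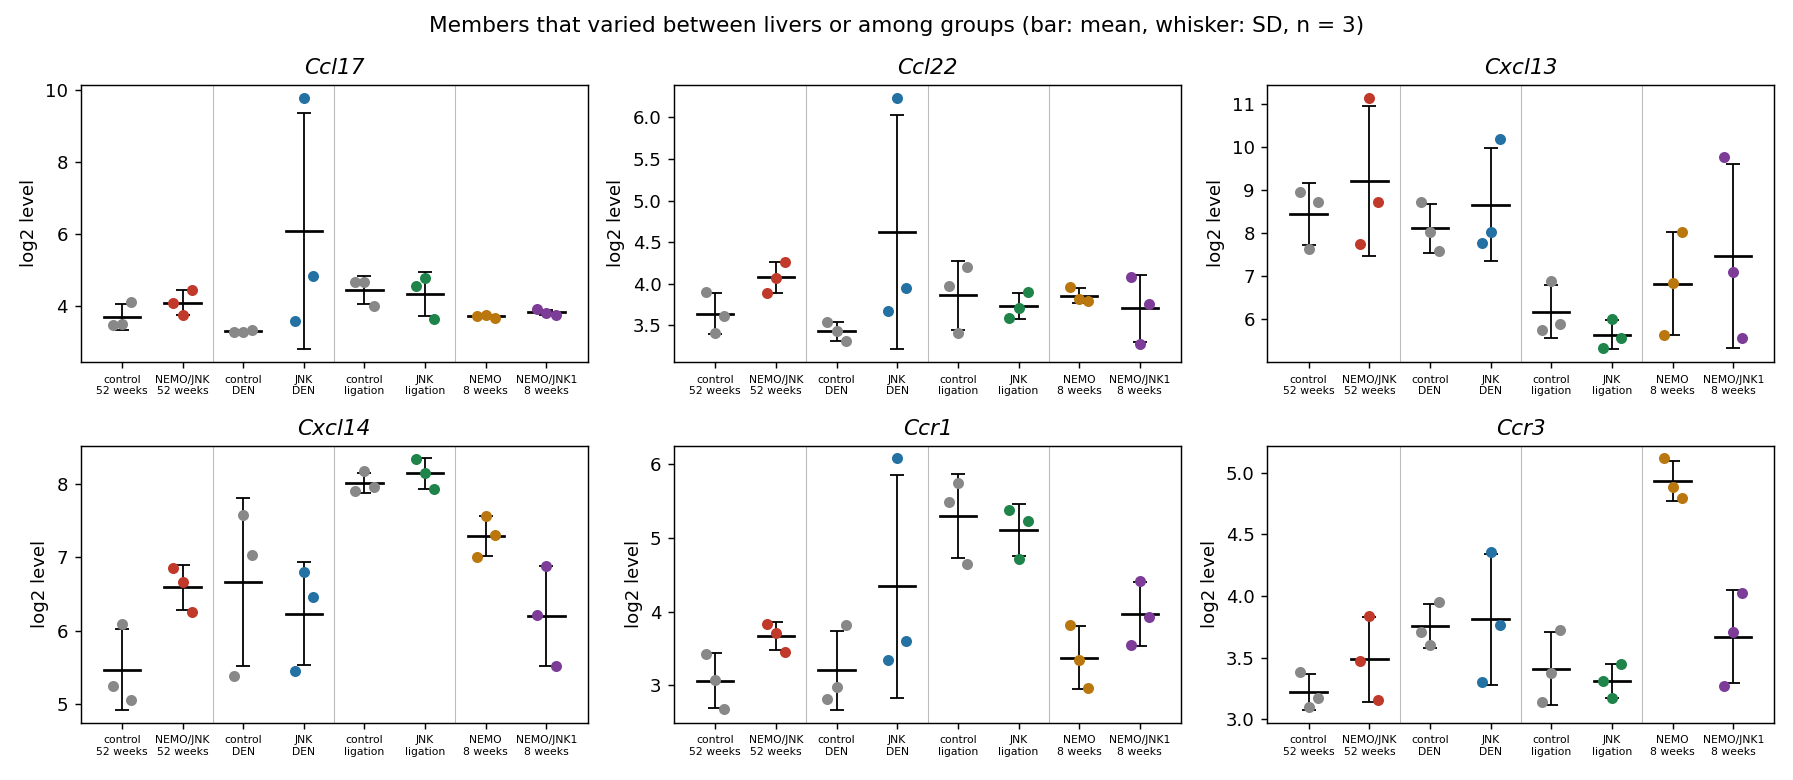
Log2 levels in every liver of 6 genes that varied between livers or among groups (points, with the mean as a bar and the SD as whiskers, n = 3). One blue point, JNKΔhepa replicate 2 after DEN, stands at 9.80 for Ccl17 and 6.24 for Ccl22, and the 3 orange NEMO points are the highest of all livers for Ccr3.

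The JNK difference after ligation was set against that after DEN in 1 model of 12 livers. No member passed, against 0.0478% of all genes; 2 had an unadjusted limma p under 0.05, against 7.11% of all genes. These were Ppbp, whose JNK difference was 1.73 after ligation and -0.42 after DEN (difference of differences 2.14 ± 0.48 SE, limma adjusted p = 0.257), and Cxcl1, at 0.70 and -0.78 (1.47 ± 0.65 SE, limma adjusted p = 0.683). For Cxcl5 the difference of differences was 1.03 ± 0.72 (SE, limma adjusted p = 0.804), with DEN replicate 2 at 5.60 among the JNKΔhepa livers. Without that liver it was 1.80 (limma adjusted p = 0.128), and the values of Ppbp and Cxcl1 were 2.00 and 1.32 (limma adjusted p = 0.343 and 0.685). The calls after ligation are thus not shown to be absent after DEN.

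At 8 weeks, no member passed between NEMO/JNK1Δhepa and NEMO livers, and 0% of all genes did. At an unadjusted limma p under 0.05 there were 9 members, 6 higher and 3 lower, against 7.66% of all genes. Groups did not overlap in 12 members: NEMO/JNK1Δhepa was above in 9, against 6.71% of all genes, and below in 3, against 7.66% of all genes.

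Ccr3, the eotaxin receptor of eosinophils, had the smallest p. It read 5.12, 4.88 and 4.80 in NEMO livers and 3.27, 3.71 and 4.02 in NEMO/JNK1Δhepa livers, a difference of -1.27 ± 0.21 (SE; limma adjusted p = 0.466). In a fit of all 24 arrays it passed (limma adjusted p = 0.0233). Every NEMO liver was above all livers of the other 7 groups. The 3 NEMO mice form an animal series of their own and the NEMO/JNK1Δhepa mice belong to another, so that genotype and series cannot be told apart in the comparison at 8 weeks. Markers of mast cells, eosinophils and basophils had list means of 2.95 to 3.04 in NEMO livers and 2.91 to 2.98 in NEMO/JNK1Δhepa livers, below the olfactory level of 3.58, so that a change in these cells could not be read from them. Ccr7 read 4.97, 5.10 and 4.90 (NEMO) and 4.43, 4.37 and 4.46 (NEMO/JNK1Δhepa), a difference of -0.57 ± 0.11 (SE; limma adjusted p = 0.544).

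Cxcl1 read 5.31, 5.20 and 5.59 in NEMO livers and 6.21, 6.22 and 5.90 in NEMO/JNK1Δhepa livers, a difference of 0.75 ± 0.16 (SE; limma adjusted p = 0.544). Both groups were among the 3 of lowest mean for this gene. Ccl8, 3.38, 3.95 and 3.53 (NEMO) and 5.10, 4.14 and 4.40 (NEMO/JNK1Δhepa), and Ccl2, 4.45, 4.51 and 4.57 (NEMO) and 5.13, 6.04 and 4.89 (NEMO/JNK1Δhepa), were higher without overlap in NEMO/JNK1Δhepa livers and did not pass (limma adjusted p = 0.602 and 0.606). Cxcl14 read 7.003, 7.56 and 7.30 (NEMO) and 6.21, 6.87 and 5.52 (NEMO/JNK1Δhepa), a difference of -1.08 ± 0.34 (SE; limma adjusted p = 0.602).

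The NEMO/JNK1Δhepa livers were uneven. Replicate 2 was the highest of all 24 livers for 10 members, among them Ppbp, which read 5.81, 7.93 and 4.22 in the 3 livers, and Pf4, which read 4.64, 6.74 and 4.36. Ccl24 read 4.57, 6.82 and 4.03. Neutrophil markers of replicate 2 had a list mean of 6.98, against 4.83 and 4.34 in replicates 1 and 3 and 4.14 to 4.71 in NEMO livers. Its macrophage list mean was 9.6, against 8.3 and 6.96 in replicates 1 and 3 and 7.42 to 7.77 in NEMO livers. The part of these cells was not tested. Replicate 3 was over 1 log2 unit below the mean of the other livers of its group for 13 members. Without replicate 2 the Ppbp difference went from 1.29 to 0.32 and that of Pf4 from 0.85 to 0.10. The Ccl24 difference went from 0.55 to -0.29 and that of Ccl2 from 0.84 to 0.50. Without replicate 3 the differences of Ppbp, Pf4, Ccl24 and Ccl2 were larger, at 2.17, 1.29, 1.105 and 1.08. The members' median difference was 0.17 with all livers, 0.117 without replicate 2 and 0.323 without replicate 3. Ccr3 kept differences of -1.28 without replicate 2 and -1.44 without replicate 3.

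The 2 injuries were compared as a secondary question, since they belong to different experiments whose time and animals cannot be told apart from the injury. In livers labelled control, 2 members were higher after ligation than after DEN, against 1.74% of all genes, and 1 was lower, against 0.739% of all genes. Ccr1, the receptor of monocytes and neutrophils for Ccl3, Ccl6 and Ccl9, read 2.82, 2.98 and 3.82 after DEN and 5.48, 5.74 and 4.65 after ligation (difference 2.09 ± 0.34 SE, limma adjusted p = 0.0292). Ccl17 read 3.27, 3.28 and 3.32 (DEN) and 4.68, 4.66 and 3.999 (ligation) (1.16 ± 0.19 SE in measured means, limma adjusted p = 0.0292). Its DEN values were all below the olfactory level of 3.58, so that the rise was at least 1.81-fold, and 2 of the 3 DEN values of Ccr1 were below it as well. The B-cell attractant Cxcl13 read 8.71, 8.02 and 7.58 after DEN and 5.75, 6.88 and 5.88 after ligation and differed by -1.93 ± 0.37 (SE; limma adjusted p = 0.0411). None overlapped. With a liver left out, Ccr1, Ccl17 and Cxcl13 passed in 2, 1 and 1 of 6 fits. Of the ligated control livers, 1 shares the animal series of the DEN livers. With series as a block, an alternative chosen after seeing the data, the 3 genes differed by 1.45, 0.71 and -2.23 and did not pass (limma adjusted p = 0.34, 0.276 and 0.301).

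In JNKΔhepa livers no member passed between ligation and DEN, against 1.08% of all genes, and 14 had an unadjusted limma p under 0.05, against 13.4% of all genes. The 4 of smallest p were Cxcl14, Ccl11, Cxcl1 and Cxcr2, all higher after ligation, with differences of 1.91 ± 0.33, 0.89 ± 0.17, 1.73 ± 0.34 and 0.86 ± 0.17 (SE; limma adjusted p = 0.057, 0.0686, 0.073 and 0.0775). Without DEN replicate 2, the liver described above, 10 members were higher after ligation, against 4.44% of all genes, and 1 lower, against 2.6%. Cxcl13 read 7.77, 8.03 and 10.17 after DEN and 5.34, 6.01 and 5.57 after ligation, a difference of -3.02 ± 0.60 (SE; limma adjusted p = 0.0778), and the lowest of its 8 group means was that of ligated JNKΔhepa livers. Matrix-producing stellate cell markers had list means of 8.17 to 8.69 and 8.31 to 8.46 in the ligated groups, against 6.61 to 6.76 and 6.48 to 7.44 after DEN; their part was not tested.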

How the data were processed

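The authors deposited log2 levels for every probe set; the submitters' processing notes name RMA, which corrects background, normalises quantiles between arrays and summarises probes. The program and version were not given in the sources used. The table held 35556 probe sets, 21218 with 1 gene symbol, 1881 with several and 12457 with none; Entrez identifiers of 21185 matched RefSeq GRCm38.p6. All 18820 genes were fitted with limma 3.58.1 in R 4.3.3, unfiltered, two-sided, adjusted by Benjamini-Hochberg and called at 0.05. Each comparison used its own 6 arrays, the interaction 12, the F test 24. An exact permutation test of 3 against 3 cannot give p below 0.1. The members and lists were chosen with earlier results of these data known. Named genes are Mapk8, Mapk9 and Ikbkg, up to 12 called members per direction and comparison, the 4 of smallest p where fewer than 3 passed, a fixed list of 30 names, and up to 3 called genes of each other list. Procedures were tested on simulated data. Array medians were 4.52 to 4.66, and arrays of a group correlated at 0.966 to 0.987. These medians cannot be those of the 18820 genes, on which the arrays were centred. Centring moved the median difference of all genes at 52 weeks from -0.045 to -0.371, more than that range allows. The range therefore does not show that arrays were level over the genes tested. Precision is limited by the 3 arrays of a group. The alternatives were other scalings, all arrays in 1 fit, a filter on dim genes, the mean of probe sets, a variance trend, array weights, blocks and left-out livers.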

Additional observations from a re-analysis of the deposited data

How the results depend on the processing

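Counts of members that passed moved by over 1.5 times as follows. At 52 weeks, the number lower was 5 with quantile normalisation, 11 with arrays centred on the median and 0 with all 24 arrays. It was 2 with array weights, 2 with the replicate number as a block and 0 to 2 with a liver left out. Among all genes the numbers lower in these fits were, in order, 2426, 8942, 1378, 1834, 1321 and 898 to 1586. The number of members higher was 9 with all 24 arrays, against 1999 of all genes. After ligation, the number higher was 1 with all 24 arrays and 2 to 5 with a liver left out, against 54 and 32 to 310 of all genes. At 8 weeks, the number lower was 1 with all 24 arrays, against 38 of all genes. For ligation against DEN in livers labelled control, the number lower was 2 with quantile normalisation, centring or the mean of probe sets and 0 with the replicate block, and the number higher was 1 with all 24 arrays, 5 with array weights and 1 with the replicate block; with animal series as a block, added after seeing the data, 0 were higher and 0 lower; left-out livers gave 0 to 4 higher and 0 to 1 lower. Among all genes in that comparison, 420 were higher with all 24 arrays, 576 with array weights and 82 with the replicate block. Left-out livers gave 45 to 610 genes higher and 11 to 248 lower. In JNKΔhepa livers, the number of members higher was 1 with quantile normalisation or centring, 2 with all 24 arrays and 11 with array weights. For all genes it was 172, 170, 189 and 1337. The number of members lower was 1 with centring and 5 with array weights, against 68 and 1145 of all genes. Left-out livers gave 0 to 10 members higher and 0 to 1 lower, against 2 to 836 and 1 to 490 of all genes. The causes were not tested. Left-out fits also hold fewer arrays. None of the 25 single-gene results that passed changed sign under an alternative, whereas 68 that did not pass changed sign under at least 1. Same-numbered livers did not deviate together in every pair (correlations -0.0693 to 0.359 over the 4 experiments), so the numbers were not taken as pairs. After DEN the same-numbered correlations were all positive (0.359, 0.301 and 0.0448), against -0.365 to 0.163 for differently numbered livers. With the replicate number as a block, no member passed after DEN. The replicate block left 18 members higher at 52 weeks, against 2415 of all genes. It left 5 higher after ligation, against 83 of all genes, and Ccl8 did not pass there (limma adjusted p = 0.0617). Of 209 single-gene results, 25 passed as reported, and 18 of these did not pass under at least 1 alternative; 31 others passed under at least 1. Low signal limits the 9 members above the olfactory level on fewer than 3 arrays.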
